A study of Mus musculus with 23 samples.

Results

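Bone morphogenetic protein (BMP) signalling was followed through 10 of its genes: the ligands *Bmp2*, *Bmp4* and *Bmp7*, the secreted inhibitor *Nog*, the inhibitory SMADs *Smad6* and *Smad7*, and the ID genes *Id1*, *Id2*, *Id3* and *Id4*. Members were chosen by name, as all probe sets annotated to 1 of these symbols alone. No threshold on their values was applied, but earlier results of these data were known when they were chosen. They took 17 of the 45101 probe sets of the array and 10 of the 18194 genes measured. *Bmp7*, *Id2* and *Id4* had 3 probe sets each, *Smad7* had 2 and the other 6 members had 1.

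Expression was measured on 23 arrays in a study of mouse medulloblastoma, a tumour of the cerebellum, made by cutting the tumour suppressor *Ptch1* with CRISPR/Cas9. The labels give strain CD1 for all 23 samples, whereas the methods name C57BL/6N mice for the postnatal transfections. The 3 CRISPR-Ptch1 tumours were 2 induced by *in utero* electroporation of wild-type embryos (EP) and 1 induced by transfection of a newborn *Trp53*-/- mouse (TF), so that the TF tumour alone also lacked *Trp53*. The other tumours were 4 from germline *Ptch1*+/- mice, 5 MERP tumours (*Atoh1-CreERT2;Ptch1* fl/fl), in which the *Atoh1* promoter limits deletion of *Ptch1* to cells that express Atoh1 (Math1), and 4 GTML tumours (Glt1-TRE;MycN;Luciferase), which overexpress the oncogene *Mycn* from a transgene driven through the *Glt1* promoter. The non-neoplastic samples were 4 adult cerebella and 3 preparations of GNPs, granule neuron precursors, taken from pups from day 4 to day 7 after birth. No label gives an array run, a sex, or the age of a tumour, so that an array run and a group cannot be told apart, and the sources used here list separate mice for the CRISPR-Ptch1 tumours alone, so that elsewhere p-values may measure a technical spread between samples. Of the tumours made with CRISPR, the study profiled more than the 3 used here.

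BMPs are secreted dimers that bind pairs of serine/threonine kinase receptors, which phosphorylate SMAD1, SMAD5 and SMAD9. These enter the nucleus with SMAD4 and switch on target genes, among them the ID genes, whose products lack a DNA-binding region and hold E proteins and neurogenic helix-loop-helix factors away from DNA. *Smad6* and *Smad7* are targets too and damp the pathway from within the cell, while noggin, the product of *Nog*, binds the ligands outside it. In the developing cerebellum BMPs oppose the proliferation of GNPs that Sonic hedgehog (SHH) drives, and *Ptch1* encodes the receptor that restrains SHH signalling.

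Values are log2 intensities after robust multi-array averaging (RMA), with 1 probe set taken for each gene, so that 1 unit is a 2-fold difference. Groups were compared with limma, and a gene was called higher or lower at an adjusted p under 0.05 over all 18194 genes. The lower quartile of an array lay between 4.40 and 4.61. Values close to it or under it are called near background here, and folds against such values are given as minimum sizes. Values of different genes come from different probes and were not compared with each other. The 3 groups with *Ptch1* disrupted (CRISPR-Ptch1, *Ptch1*+/- and MERP, 12 arrays) were averaged with equal weight as *Ptch1*-model tumours.

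The targeted genes served as no check on the labels here. *Ptch1* lay between 11.50 and 13.24 in the 12 *Ptch1*-model tumours against 11.88 to 11.997 in adult cerebellum, and the probe sets were not placed relative to the disrupted exons. *Mycn* lay between 7.15 and 8.39 in GTML tumours, between 6.57 and 7.13 in adult cerebellum and between 11.67 and 12.57 elsewhere, and whether its probe set reads the transgene was not tested. The mean of 6 GNP markers (*Atoh1*, *Barhl1*, *Nhlh1*, *Insm1*, *Zic1* and *Pax6*) was 10.94 to 11.34 in *Ptch1*-model tumours and 11.08 to 11.16 in GNPs, but 6.79 to 7.71 in GTML tumours and 7.18 to 7.61 in adult cerebellum. The arrays were of whole tissue or cell preparations, in which fewer cells of a type and less RNA per cell cannot be told apart.

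**Figure D1:**
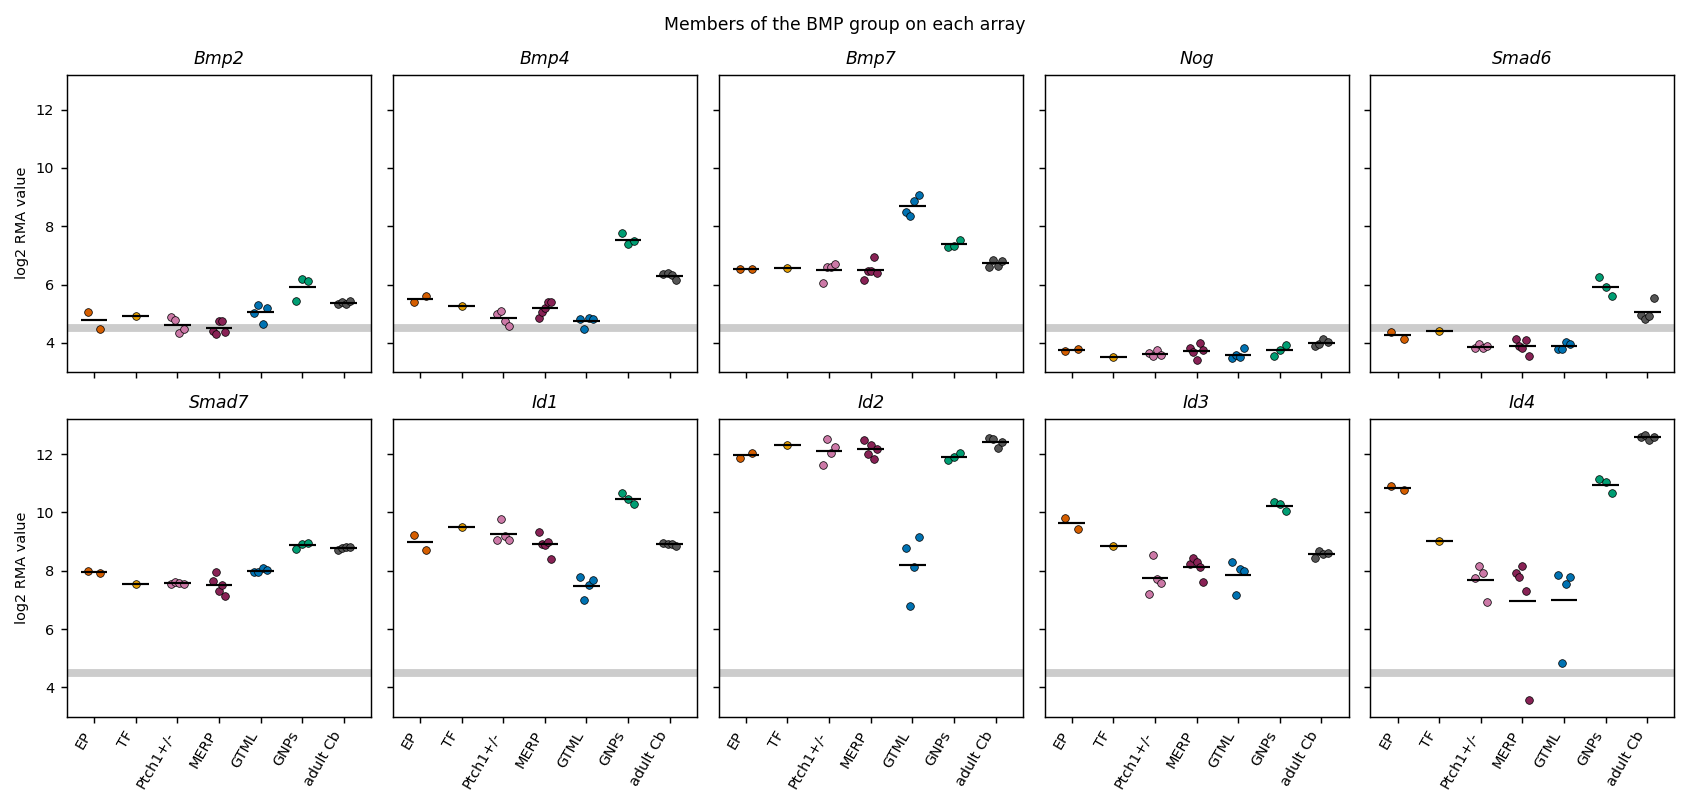
Log2 RMA value of each member (vertical axis) on each of the 23 arrays (points) in 7 groups (horizontal axis), with the group mean as a black bar and the range of the arrays' lower quartiles as a grey band. *Id2* dropped in the GTML tumours alone (6.78 to 9.16 against 11.62 to 12.55 elsewhere), *Bmp7* was high there (8.34 to 9.07), and *Nog* lay under the grey band on all 23 arrays.

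Among the ligands, *Bmp4* was highest in GNPs and low in every tumour group. *Bmp4*, a ligand known for inducing differentiation of GNPs in culture, measured 7.75, 7.37 and 7.48 in the 3 GNP samples and 6.37, 6.39, 6.32 and 6.15 in the 4 adult cerebella. It measured 5.41 and 5.60 in the EP tumours, 5.26 in the TF tumour, 4.98, 5.07, 4.75 and 4.57 in *Ptch1*+/- tumours, 4.86, 5.06, 5.19, 5.40 and 5.40 in MERP tumours, and 4.82, 4.47, 4.86 and 4.82 in GTML tumours. All 3 GNP values lay above the other 20 arrays, and all 4 adult values above the 16 tumours, whereas neighbouring tumour groups overlapped. *Bmp4* was at least 5.22-fold lower in *Ptch1*-model tumours than in GNPs (log2 difference -2.39, SE 0.13, adjusted p = 6.68e-12) and at least 2.23-fold lower than in adult cerebellum (-1.16, SE 0.11, adjusted p = 1.26e-08). All tumour values but 1 (GTML tumour 2) lay above their array's lower quartile.

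*Bmp7*, a ligand of broad expression in the embryo, had the opposite order in GTML tumours. On the probe set used, it measured 8.48, 8.34, 8.87 and 9.07 in the 4 GTML tumours, above all other 19 arrays, which ran from 6.04 to 7.52. GNPs came next, at 7.28, 7.32 and 7.52, and did not overlap adult cerebellum (6.61, 6.83, 6.64 and 6.81). The *Ptch1*-model tumours lay between 6.04 and 6.95, and their 3 groups overlapped. *Bmp7* was 4.54-fold higher in GTML than in *Ptch1*-model tumours (log2 difference 2.18, SE 0.14, adjusted p = 4.34e-11) and 3.91-fold higher than in adult cerebellum (1.97, SE 0.17, adjusted p = 1.75e-09). Its other 2 probe sets were also higher against *Ptch1*-model tumours, by 2.34 and 1.26 on the log2 scale (adjusted p = 1.9e-08 and 1.43e-06 over all probe sets). Both are minimum sizes, since *Ptch1*-model tumours were near background on these probe sets. On both probe sets, GTML tumours and GNPs overlapped. GTML tumours ran from 6.10 to 7.93 (mean 6.73) on the first and GNPs from 6.67 to 6.95 (mean 6.85). On the second, GTML tumours ran from 4.44 to 5.84 and GNPs from 4.87 to 5.11.

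*Bmp2*, the closest relative of *Bmp4*, was higher in GNPs than elsewhere and near background in many tumours. It measured 5.45, 6.19 and 6.13 in GNPs and 5.34, 5.41, 5.33 and 5.45 in adult cerebellum, so that the lowest GNP sample and the highest adult sample were level. Tumour values ran from 4.30 to 5.31, and 5 of the 12 *Ptch1*-model tumours lay below their array's lower quartile. *Bmp2* was lower in *Ptch1*-model tumours than in GNPs (-1.27, SE 0.16, adjusted p = 4.65e-06) and than in adult cerebellum (-0.73, SE 0.15, adjusted p = 0.000195), both minimum sizes.

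*Nog* was near background throughout. Its values ran from 3.41 in a MERP tumour to 4.13 in an adult cerebellum, below the lower quartile on 23 of 23 arrays. The call of *Nog* as lower in *Ptch1*-model tumours than in adult cerebellum (-0.31, SE 0.10, adjusted p = 0.00946), and the like call in GTML tumours (-0.40, SE 0.12, adjusted p = 0.00726), therefore compare values that no group raised above background.

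The inhibitory SMADs were lower in tumours than in both non-neoplastic groups. *Smad6* measured 6.26, 5.92 and 5.60 in GNPs and 4.94, 4.80, 4.93 and 5.54 in adult cerebellum, and lay below the lower quartile in 16 of 16 tumours, which ran from 3.54 to 4.39. The highest adult value came close to the lowest GNP value without overlap. *Smad6* was at least 3.74-fold lower in *Ptch1*-model tumours than in GNPs (-1.90, SE 0.14, adjusted p = 1.77e-09) and at least 2.04-fold lower than in adult cerebellum (-1.03, SE 0.13, adjusted p = 4.82e-07).

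*Smad7*, which also restrains TGF-beta signalling, was well above background in all groups. It measured 8.74, 8.91 and 8.96 in GNPs and 8.71, 8.78, 8.81 and 8.81 in adult cerebellum, which overlapped. Tumour values ran from 7.14 to 8.09, below both. *Smad7* was 2.36-fold lower in *Ptch1*-model tumours than in GNPs (-1.24, SE 0.12, adjusted p = 1.22e-07) and 2.21-fold lower than in adult cerebellum (-1.14, SE 0.11, adjusted p = 9.98e-09), and its other probe set was lower in both comparisons (-1.72 and -1.77). *Smad4* and the receptor SMADs, by contrast, did not follow the inhibitory SMADs. *Smad1* was 0.47 higher in *Ptch1*-model tumours than in adult cerebellum (SE 0.09, adjusted p = 0.000154), *Smad5* 0.59 higher (SE 0.12, adjusted p = 0.000291) and *Smad4* 0.57 higher (SE 0.17, adjusted p = 0.00652). *Smad9*, near background in every group (means of 4.28 to 4.61), had a difference of -0.01 (adjusted p = 0.958).

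The 4 ID genes did not move together. *Id1* and *Id3* were highest in GNPs, *Id2* stayed high in all groups but GTML, and *Id4* was highest in adult cerebellum. The reference table of promoters from RefSeq (build GRCm38.p6) held *Id2*, *Id3* and *Id4*. The 250 bases before the start of each are shown so that the SMAD and E-box elements of these targets can be seen beside their levels. Capitals mark GGCGCC, a GC-rich element that SMAD1 and SMAD5 are known to bind, and CAGCTG, an E-box.

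*Id2*, chr12:25096093-25096342, minus strand: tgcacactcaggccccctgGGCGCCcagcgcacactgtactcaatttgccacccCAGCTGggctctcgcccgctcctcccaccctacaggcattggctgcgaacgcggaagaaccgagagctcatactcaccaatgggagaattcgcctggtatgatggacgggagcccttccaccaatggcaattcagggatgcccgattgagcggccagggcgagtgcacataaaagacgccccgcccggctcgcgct

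*Id3*, chr4:136143572-136143821, plus strand: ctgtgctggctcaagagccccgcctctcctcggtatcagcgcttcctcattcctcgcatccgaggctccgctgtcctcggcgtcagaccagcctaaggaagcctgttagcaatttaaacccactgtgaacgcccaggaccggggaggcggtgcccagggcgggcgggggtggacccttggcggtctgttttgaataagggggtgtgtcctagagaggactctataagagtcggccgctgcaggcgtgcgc

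*Id4*, chr13:48260866-48261115, plus strand: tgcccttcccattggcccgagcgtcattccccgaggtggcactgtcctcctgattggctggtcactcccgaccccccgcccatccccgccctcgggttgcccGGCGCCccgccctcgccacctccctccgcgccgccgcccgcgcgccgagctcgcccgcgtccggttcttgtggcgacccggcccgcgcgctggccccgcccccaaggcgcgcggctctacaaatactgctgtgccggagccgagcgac

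In *Id2* the GGCGCC began 231 bases and the CAGCTG 196 bases before the start, in *Id4* a GGCGCC began 148 bases before it, and *Id3* held neither. Searched on both strands, GGCGCC was in 9.59% of the 32851 promoters of that length in the table and CAGCTG in 13%. TGGGTGGTC, bound by the SHH effectors of the GLI family, was in 0.225% of them and in 0 of the 5 members with a promoter there, which were *Bmp4*, *Smad6*, *Id2*, *Id3* and *Id4*. A match is a description of the letters, and the arrays did not measure binding.

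*Id2*, known in the cerebellum for its expression in GNPs, gave the largest difference between tumour models. It measured 8.77, 6.78, 8.12 and 9.16 in the 4 GTML tumours. The other 19 arrays ran from 11.62 to 12.55, with 11.88 and 12.05 in EP, 12.31 in TF, 11.62, 12.51, 12.04 and 12.23 in *Ptch1*+/-, 12.48, 12.02, 12.31, 11.81 and 12.18 in MERP, 11.79, 11.90 and 12.04 in GNPs and 12.55, 12.51, 12.19 and 12.42 in adult cerebellum. No GTML tumour came within 2 log2 units of any other array, while the other groups overlapped with their neighbours in order of level. *Id2* was 15-fold lower in GTML than in *Ptch1*-model tumours (-3.91, SE 0.27, adjusted p = 1.32e-10) and 18.5-fold lower than in adult cerebellum (-4.21, SE 0.32, adjusted p = 3.28e-10). Its other 2 probe sets were lower as well, by -3.84 and -2.27 against *Ptch1*-model tumours (adjusted p = 1.07e-09 and 2.33e-05).

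Between *Ptch1*-model tumours and GNPs the difference of *Id2* was 0.20 (95% confidence interval -0.41 to 0.82, adjusted p = 0.676). Its probe sets disagreed on smaller differences. The probe set that correlated least with the one used (r = 0.61 over 23 arrays) was lower in MERP than in *Ptch1*+/- tumours by -2.52 (SE 0.40, adjusted p = 7.92e-05), where the one used gave 0.06 (adjusted p = 0.913). It was likewise lower in CRISPR-Ptch1 than in *Ptch1*+/- tumours by -1.74 (adjusted p = 0.00461), where the one used gave -0.02 (adjusted p = 0.967). The remaining probe set was lower in GNPs than in adult cerebellum by -1.01 (adjusted p = 0.0351), where the one used gave -0.51 (adjusted p = 0.273 when adjusted over all probe sets, as for the other probe sets here). It was also lower in *Ptch1*-model tumours than in adult cerebellum by -0.88 (adjusted p = 0.0144), where the one used gave -0.31 (adjusted p = 0.379).

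**Figure D2:**
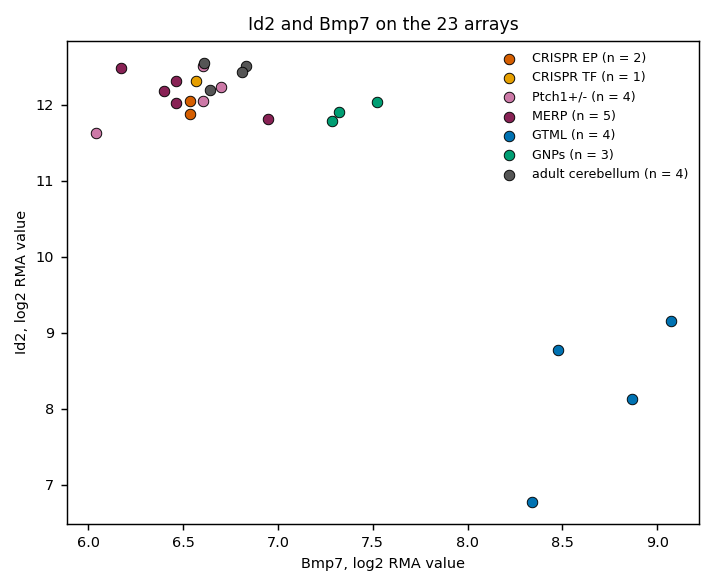
*Id2* (vertical axis) against *Bmp7* (horizontal axis), both as log2 RMA values, with 1 point for each of the 23 arrays coloured by group. The 4 GTML tumours stand apart with high *Bmp7* and low *Id2*, and the other 19 arrays show a correlation of only -0.18.

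Over the 23 arrays *Bmp7* and *Id2* had a Pearson r of -0.86, which was -0.18 over the 19 arrays without GTML. This correlation thus described the distance of GTML tumours from the rest. The plot of *Id2* against *Bmp7* shows 2 clouds of points and no gradient within the larger.

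*Id1*, the classical BMP target, measured 10.65, 10.47 and 10.28 in GNPs, above the other 20 arrays. Adult cerebellum (8.83 to 8.96) and the *Ptch1*-model tumours (8.41 to 9.76) overlapped. GTML tumours, at 7.77, 7.003, 7.50 and 7.69, lay below the other 19 arrays. *Id1* was 3.05-fold lower in GTML than in *Ptch1*-model tumours (-1.61, SE 0.17, adjusted p = 7.48e-08) and 2.58-fold lower in *Ptch1*-model tumours than in GNPs (-1.37, SE 0.18, adjusted p = 8.23e-06).

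*Id3*, which overlaps with *Id1* in function, was likewise highest in GNPs, at 10.34, 10.30 and 10.06. CRISPR-Ptch1 tumours came next, at 9.82 and 9.45 (EP) and 8.84 (TF), above adult cerebellum at 8.44, 8.66, 8.57 and 8.59. MERP tumours (7.60 to 8.43), GTML tumours (7.16 to 8.28) and *Ptch1*+/- tumours (7.20 to 8.52) overlapped each other and had lower means, though the highest *Ptch1*+/- tumour lay above the lowest adult sample. *Id3* was 3.52-fold lower in *Ptch1*-model tumours than in GNPs (-1.81, SE 0.24, adjusted p = 5.36e-06).

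*Id4*, known from neural stem cells and astrocytes, varied most of the 10 members, with an SD of 2.48 over the 23 arrays that exceeded that of 99.6% of all genes. It measured 12.59, 12.65, 12.49 and 12.60 in adult cerebellum, above the other 19 arrays, and 11.14, 11.03 and 10.67 in GNPs. EP tumours measured 10.90 and 10.76, within the GNP range, and the TF tumour 9.03. *Ptch1*+/- tumours measured 7.75, 8.15, 7.91 and 6.91, MERP tumours 7.91, 7.77, 8.17, 7.30 and 3.58, and GTML tumours 7.86, 4.83, 7.56 and 7.79. MERP tumour 5 and GTML tumour 2 stood far below the rest of their groups, and the first lay below its array's lower quartile. *Id4* was 19.7-fold lower in *Ptch1*-model tumours than in adult cerebellum (-4.30, SE 0.63, adjusted p = 4.2e-06) and -2.66 against GNPs (SE 0.70, adjusted p = 0.0083). All 3 probe sets were lower in both comparisons.

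**Figure D3:**
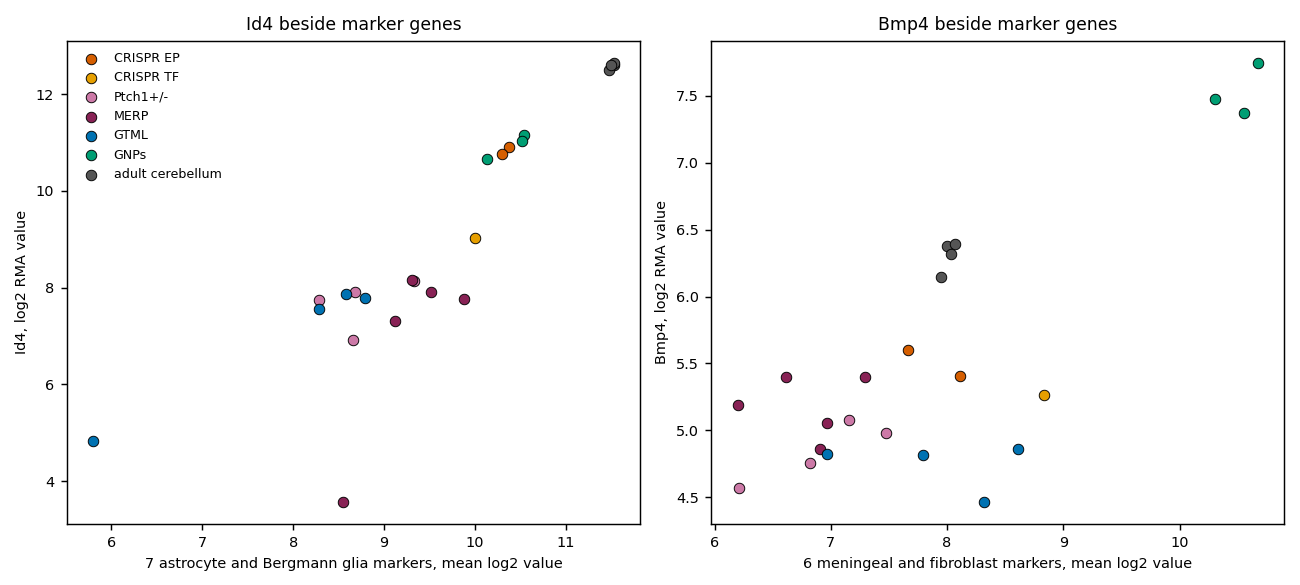
Left, *Id4* against the mean of 7 astrocyte and Bergmann glia markers; right, *Bmp4* against the mean of 6 meningeal and fibroblast markers, all in log2 RMA values, with 1 point for each of the 23 arrays coloured by group. The marker list of *Id4* is lowest in GTML tumour 2 (5.80, with *Id4* at 4.83), while *Id4* is lowest in MERP tumour 5 (3.58) at a marker mean of 8.55. *Bmp4* and its marker list have a Pearson r of 0.78 over the 23 arrays and 0.07 over the 16 tumours.

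Astrocyte and Bergmann glia markers (*Gfap*, *Aldh1l1*, *Aqp4*, *Slc1a3*, *Gja1*, *S100b* and *Gdf10*) were set beside *Id4*. Their mean ran from 11.48 to 11.53 in adult cerebellum, 10.13 to 10.54 in GNPs, 10.002 to 10.37 in CRISPR-Ptch1, 8.55 to 9.88 in MERP, 8.29 to 9.33 in *Ptch1*+/- and 5.80 to 8.79 in GTML tumours. Of the 7 markers, 6 were lower in *Ptch1*-model tumours than in adult cerebellum, and 4 were higher in CRISPR-Ptch1 than in *Ptch1*+/- tumours, but only 1 was higher in CRISPR-Ptch1 than in MERP tumours and 1 lower in GNPs than in adult cerebellum. *Id4* had a Pearson r of 0.89 with the mean of these markers over the 23 arrays and 0.73 over the 16 tumours. Other lists gave similar values, and r was 0.82 (23 arrays) and 0.68 (16 tumours) with the Purkinje cell markers, 0.82 and 0.67 with the oligodendrocyte markers, and 0.78 and 0.76 with the mature granule neuron markers. These correlations describe arrays that share their groups, and the part of any of these cells in the *Id4* levels was not tested.

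The first comparison asked how GNPs differed from the adult tissue. Of the 10 members, 6 were higher in GNPs and 0 lower, where 29.1% of all 18194 genes were higher and 21% lower. The 6 were *Bmp2* (0.54), *Bmp4* (1.23), *Bmp7* (0.65), *Smad6* (0.88), *Id1* (1.57) and *Id3* (1.67), and the median difference of the 10 members was 0.60 against 0.03 over all genes. *Id1* was 2.96-fold (SE 0.22, adjusted p = 2.86e-06) and *Id3* 3.18-fold higher (SE 0.28, adjusted p = 3.03e-05). After subtraction of each array's median over the 18194 genes, 4 members were higher and 2 lower: *Bmp2* (0.31, adjusted p = 0.203) and *Bmp7* (0.42, adjusted p = 0.0805) were no longer called, and *Nog* (-0.47, adjusted p = 0.00766) and *Id4* (-1.87, adjusted p = 0.0494) were called lower. The other 2 probe sets of *Bmp7* were higher by 2.03 and 0.90, both minimum sizes, with adult means near background (4.82 and 4.12). *Bmp2* was no longer called without GNP sample 2 (0.41, adjusted p = 0.14) or without GNP sample 3 (0.44, adjusted p = 0.116). *Id4* had a difference of -1.64 (SE 0.83, adjusted p = 0.11) that was not called with all arrays but was called without MERP tumour 5 (adjusted p = 0.0164). With all arrays kept, its other 2 probe sets were called lower, by -1.81 (adjusted p = 0.000992 over all probe sets) and -1.64 (adjusted p = 0.0439). A limma fit of only the groups compared called *Id4* (adjusted p = 3.03e-07) and *Id2* (-0.51, adjusted p = 0.00133) lower.

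Markers of vessels, meninges and choroid plexus were also higher in GNPs than in adult cerebellum. The mean of 7 endothelial and pericyte markers was 9.998 to 10.62 in GNPs and 8.09 to 8.27 in adult cerebellum, and 7 of 7 were higher. That of 6 meningeal and fibroblast markers was 10.30 to 10.68 against 7.95 to 8.07, with 6 of 6 higher, and that of 5 choroid plexus markers 9.72 to 10.52 against 6.55 to 6.83, with 5 of 5 higher. The same lists were lower in *Ptch1*-model tumours than in GNPs for 7 of 7, 6 of 6 and 4 of 5 markers. Over the 23 arrays the meningeal and fibroblast list had a Pearson r of 0.78 with *Bmp2*, 0.78 with *Bmp4* and 0.30 with *Bmp7*. With *Smad6*, *Id1* and *Id3* it was 0.81, 0.45 and 0.72. Over the 16 tumours r was 0.47, 0.07, 0.38, 0.43, -0.34 and 0.22 in the same order. The part of vessels, meninges and choroid plexus in the levels of the BMP members was not tested.

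The comparison of *Ptch1*-model tumours with GNPs asked how tumours differ from the cells in which SHH medulloblastoma is known to arise. Of the 10 members, 8 were lower and 0 higher, where 16% of all genes were lower and 6.41% higher. The median difference was -1.32 against -0.02 over all genes. *Bmp4*, *Smad6*, *Id3*, *Id1*, *Bmp2*, *Smad7*, *Id4* and *Bmp7* (-0.87, SE 0.15, adjusted p = 0.000221) were the 8, and *Nog* (-0.07, adjusted p = 0.691) and *Id2* were not called. All 8 remained called when any 1 of the 23 arrays was left out. The array medians over the 18194 genes differed by -0.29 in this comparison, and subtracting them, which brings the differences nearer to 0, left 8 of 8 called as well. The other 2 probe sets of *Bmp7* gave -2.45 and -1.07, so that the size of its difference depended on the probe set. Both are minimum sizes, since the group means of these tumours were near background there (4.06 to 4.89 and 3.91 to 3.99). In CRISPR-Ptch1 tumours taken alone, *Id3* (-0.87, SE 0.30, adjusted p = 0.0593) and *Id4* (-0.72, SE 0.89, adjusted p = 0.687) were not called against GNPs. In *Ptch1*+/- and MERP tumours *Id3* was lower by -2.48 and -2.10, and *Id4* by -3.27 and -4.00.

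Against adult cerebellum, which shares its arrays with the first comparison, 6 members were lower in *Ptch1*-model tumours and 0 higher, where 27.5% of all genes were lower and 28.1% higher. The 6 were *Bmp2*, *Bmp4*, *Nog*, *Smad6*, *Smad7* and *Id4*, with a median difference of -0.52 over the 10 members against 0.02. *Id1* (0.20, SE 0.17, adjusted p = 0.339), *Id2* (-0.31, SE 0.27, adjusted p = 0.358), *Id3* (-0.14, SE 0.21, adjusted p = 0.603) and *Bmp7* (-0.22, SE 0.14, adjusted p = 0.199) were not called. For *Id3* the mean joined opposite differences from adult cerebellum. *Id3* was higher in CRISPR-Ptch1 tumours (0.80, SE 0.28, adjusted p = 0.0216) and lower in *Ptch1*+/- tumours (-0.81, SE 0.26, adjusted p = 0.0111), with MERP tumours at -0.43 (adjusted p = 0.149). Another probe set of *Id2* was called lower in *Ptch1*-model tumours (-0.88, adjusted p = 0.0144 over all probe sets). *Bmp2*, *Smad6* and *Nog*, 3 of the 6, were at or near background in these tumours.

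**Figure D4:**
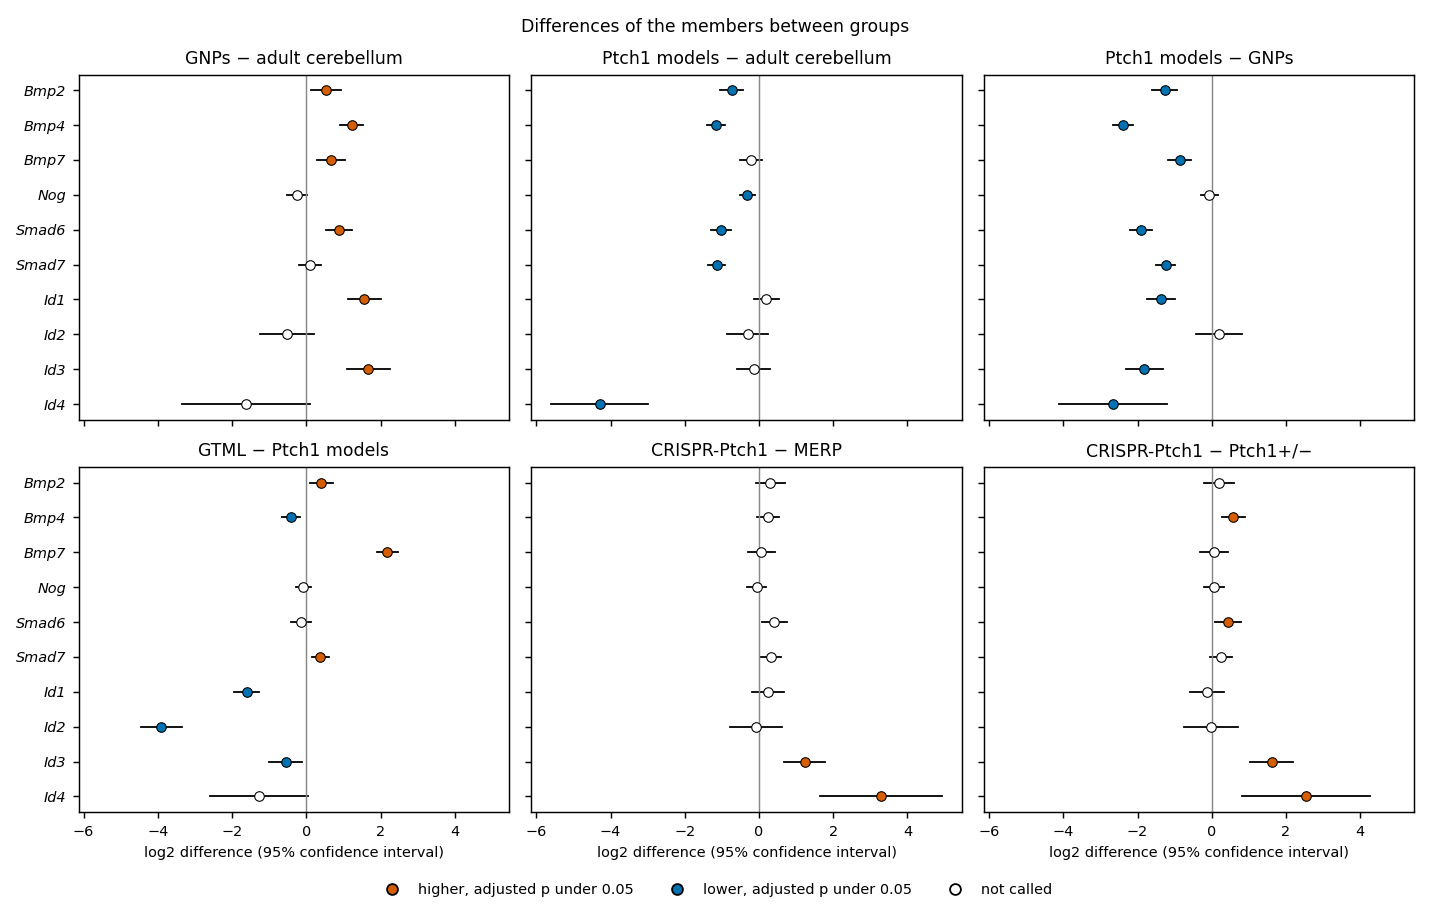
Log2 difference of each member (horizontal axis, point with 95% confidence interval from the limma fit) in 6 of the 8 comparisons, coloured where the adjusted p was under 0.05. The panel against GNPs has 8 members called lower, and *Id2* at -3.91 and *Bmp7* at 2.18 lie farthest from 0 in the panel of GTML against *Ptch1*-model tumours.

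GTML tumours differed from adult cerebellum in 9 of 10 members, 8 lower and 1 (*Bmp7*) higher, where 27.9% of all genes were lower and 27.3% higher. The median over the members was -0.97 against 0.04. *Id4* was 47.7-fold lower (-5.57, SE 0.77, adjusted p = 1.99e-06), with a difference of -4.85 without GTML tumour 2 (adjusted p = 8.83e-06), and *Id1* 2.66-fold lower (-1.41, SE 0.20, adjusted p = 3.14e-06). *Bmp4* was at least 2.97-fold lower (-1.57, SE 0.14, adjusted p = 3e-09), *Smad6* at least 2.24-fold lower (-1.17, SE 0.16, adjusted p = 1.46e-06) and *Smad7* 1.71-fold lower (-0.77, SE 0.13, adjusted p = 4.2e-05). *Id3* had the weakest of these calls after *Bmp2*, which was not called (-0.33, SE 0.18, adjusted p = 0.129): the difference of *Id3* was -0.70 (SE 0.26, adjusted p = 0.027) and was not called without GTML tumour 2 (-0.46, adjusted p = 0.132).

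The comparison of GTML with *Ptch1*-model tumours set a *Mycn*-driven against an SHH-driven model. Of the members, 3 were higher in GTML, where 20.5% of all genes were, and 4 were lower, where 21.9% were. *Bmp7*, *Id2* and *Id1*, described above, differed at least 2-fold. The others differed less, with *Smad7* 0.37 higher (SE 0.11, adjusted p = 0.00964), *Bmp2* 0.40 higher (SE 0.15, adjusted p = 0.0326), *Bmp4* -0.41 (SE 0.11, adjusted p = 0.00588) and *Id3* -0.55 (SE 0.21, adjusted p = 0.042). *Bmp2* and *Id3* were not called without GTML tumour 2 (0.32, adjusted p = 0.139, and -0.31, adjusted p = 0.267), and over all alternatives the call of *Id3* was lost in 15 of 36 and that of *Bmp2* in 10 of 35. *Bmp4*, near background in both groups, was not called after subtraction of the array medians over all genes (-0.27, adjusted p = 0.0692). *Id4* was not called (-1.28, SE 0.63, adjusted p = 0.112), but it was without MERP tumour 5 (-1.56, adjusted p = 0.00484) and without both MERP tumour 5 and GTML tumour 2, an alternative added after the data were seen (-0.83, adjusted p = 0.0297).

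The GNP markers moved with *Id2*, *Id1* and *Bmp7* in this comparison, and 5 of 6 were lower in GTML. Over the 16 tumours the mean of these markers had a Pearson r of 0.95 with *Id2*, 0.90 with *Id1* and -0.95 with *Bmp7*, correlations across 2 clusters of arrays. Over the 23 arrays r was 0.54, 0.63 and -0.58. Adult cerebellum had low GNP marker means like GTML tumours (7.18 to 7.61), but its *Id2* was 12.19 to 12.55. *Zic1*, 1 of the 6, was also among the 3 genes most like *Id2* over all arrays. Its mean was 13.94 in adult cerebellum, 13.58 in GNPs and 6.27 in GTML tumours. The other 5 markers, unlike *Zic1*, were higher in GNPs than in adult cerebellum. The part of cell identity in the differences between GTML and *Ptch1*-model tumours was not tested.

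Among *Ptch1* models, the CRISPR-Ptch1 tumours had the higher *Id3* and *Id4*. Against MERP tumours 2 of 10 members were higher and 0 lower, where 8.2% of all genes were higher and 5.15% lower: *Id3* by 1.23 (SE 0.27, adjusted p = 0.00468) and *Id4* by 3.28 (SE 0.79, adjusted p = 0.00955). Against *Ptch1*+/- tumours 4 were higher and 0 lower, where 28.5% of all genes were higher and 8.33% lower: *Bmp4* by 0.58 (SE 0.15, adjusted p = 0.00433), *Smad6* by 0.44 (SE 0.17, adjusted p = 0.0474), *Id3* by 1.61 (SE 0.28, adjusted p = 0.000142) and *Id4* by 2.55 (SE 0.83, adjusted p = 0.0193). *Smad6* was below background in both groups, its call was lost in 18 of 35 alternatives, and its difference was -0.040 after subtraction of each array's median over the 18194 genes, which also left *Bmp4* at 0.10 (adjusted p = 0.591). That setting called *Nog* (-0.43, adjusted p = 0.0149) and *Id1* (-0.60, adjusted p = 0.0236) lower, so that 2 members were higher and 2 lower. *Id4* remained called in both comparisons without MERP tumour 5, at 2.44 against MERP and 2.55 against *Ptch1*+/- tumours. Leaving out EP tumour 1 gave adjusted p-values for *Id4* of 0.0598 against MERP and 0.0861 against *Ptch1*+/- tumours, and leaving out EP tumour 2 gave 0.0562 and 0.0751. Without *Ptch1*+/- tumour 4 it was 2.29 against *Ptch1*+/- tumours (adjusted p = 0.0559). A limma fit of only the groups compared did not call *Id4* against MERP tumours (3.28, adjusted p = 0.0849). Other probe sets gave further calls, adjusted over all probe sets. A probe set of *Id2* was lower than in *Ptch1*+/- tumours (-1.74, adjusted p = 0.00461). A probe set of *Bmp7* was higher than in MERP tumours (0.83, adjusted p = 0.0469), where it was near background.

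With the 2 EP tumours alone as CRISPR-Ptch1, *Id4* differed by 3.88 from MERP (adjusted p = 0.0056) and by 3.15 from *Ptch1*+/- tumours (adjusted p = 0.0112). With the TF tumour alone as CRISPR-Ptch1, 0 members were called against MERP, with *Id3* at 0.70 (adjusted p = 0.398) and *Id4* at 2.08 (adjusted p = 0.429). Against *Ptch1*+/- tumours 0 were called as well, with *Id3* at 1.08 (adjusted p = 0.052) and *Id4* at 1.35 (adjusted p = 0.487). The EP tumours and the TF tumour were not tested against each other, since the latter is a single tumour that differs in age at targeting, route and *Trp53*. Markers of other cells were high in the same tumours: the Purkinje cell markers had means of 9.26 and 10.82 in EP, 8.21 in TF and 5.24 to 6.08 in *Ptch1*+/- and MERP tumours. Microglia and macrophage markers had means of 9.90 and 10.17 in EP, 8.90 in TF and 6.66 to 8.64 in the other *Ptch1* models, and 6 of 6 were higher in both comparisons. Of 5 oligodendrocyte markers 3 were higher than in MERP tumours, of 5 mature granule neuron markers 3, and of 4 proliferation markers 0. Their part in *Id3* and *Id4* was not tested.

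MERP and *Ptch1*+/- tumours differed in 0 of 10 members by limma, where 25.9% of all genes were higher in MERP and 6.08% lower. At an unadjusted p under 0.05 there was 1, *Bmp4*, 0.34 higher in MERP (SE 0.13, adjusted p = 0.0558), which was called under some alternatives. On the probe sets used, the 95% confidence interval of the difference was -0.58 to 0.69 for *Id2* and -2.25 to 0.78 for *Id4*, so that differences of over 4-fold in *Id4* were not excluded by its interval. The other 2 probe sets of *Id2* gave -2.52 (adjusted p = 7.92e-05 over all probe sets) and 0.21 (adjusted p = 0.681). The mean of its probe sets gave -0.75 (adjusted p = 0.0468), so that the interval holds for 1 probe set alone.

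The other genes of the pathway were read from a list of 46, of which 42 were measured. They comprised further ligands, inhibitors, receptors, SMADs, intracellular restraints, targets and the E protein partners of the ID proteins. In GNPs 22 of the 42 (52.4%) were higher than in adult cerebellum and 5 (11.9%) lower, with a median of 0.51, against 29.1% and 21% of all genes. *Ptch1*-model tumours had 14 (33.3%) higher and 10 (23.8%) lower than adult cerebellum (median 0.11), close to the 28.1% and 27.5% of all genes. Against GNPs they had 4 (9.52%) higher and 14 (33.3%) lower (median -0.18), where 6.41% and 16% of all genes were. GTML tumours had 6 (14.3%) higher and 13 (31%) lower than *Ptch1*-model tumours (median -0.09), where 20.5% and 21.9% of all genes were.

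Against GNPs, *Ptch1*-model tumours had 1 of 8 other ligands lower and 0 higher, 6 of 11 other inhibitors lower and 1 (*Cer1*, 0.31, adjusted p = 0.0189) higher, and 2 of 4 other targets lower and 1 (*Hey1*, 0.53, adjusted p = 0.0207) higher. *Bmp6*, the ligand called, was lower by -3.29 (SE 0.20, adjusted p = 4.9e-11) and by -1.80 against adult cerebellum (SE 0.18, adjusted p = 1.29e-08). *Sostdc1*, an inhibitor of BMP and WNT ligands, was lower than in GNPs by -3.88 (SE 0.51, adjusted p = 5.51e-06), and *Fst*, which encodes follistatin, by -1.04 (SE 0.13, adjusted p = 3.94e-06). *Fst* was near background in these tumours (group means of 4.19 to 4.62). So were *Bmp6* in *Ptch1*+/- and MERP tumours (4.56 and 4.62) and *Sostdc1* in MERP tumours (4.66). The differences of these 3 genes are therefore minimum sizes. *Cer1* was near background in every group (4.17 to 4.56). *Bambi*, a pseudoreceptor without a kinase, was lower by -1.32 (SE 0.25, adjusted p = 0.000438), and the homeobox targets *Msx1* and *Msx2* by -2.33 (SE 0.18) and -1.19 (SE 0.15).

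Receptors and E proteins differed in both directions. *Bmpr1b*, a type I receptor, was lower in *Ptch1*-model tumours than in adult cerebellum (-2.27, SE 0.24, adjusted p = 3.83e-08) and than in GNPs (-1.62, SE 0.27, adjusted p = 9.95e-05), and was higher in GTML than in *Ptch1*-model tumours (1.77, SE 0.24, adjusted p = 3.57e-06). *Acvr2b*, a type II receptor, was higher in *Ptch1*-model tumours than in adult cerebellum (2.11, SE 0.16, adjusted p = 1.5e-10). Against adult cerebellum *Msx2* was lower (-1.75, SE 0.13) and the target *Hey1*, which Notch signalling also induces, was higher (1.68, SE 0.14). The 3 E proteins that IDs bind, *Tcf3*, *Tcf4* and *Tcf12*, were all higher in *Ptch1*-model tumours than in adult cerebellum, *Tcf3* by 2.58 (SE 0.09, adjusted p = 5.62e-16).

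In GTML tumours all 3 E proteins were lower than in *Ptch1*-model tumours, *Tcf4* by -2.12 (SE 0.09, adjusted p = 1.51e-13), *Tcf3* by -1.17 (SE 0.09, adjusted p = 1.14e-09) and *Tcf12* by -0.28 (SE 0.09, adjusted p = 0.0194). The ligand *Bmp5* was lower there by -4.03 (SE 0.84, adjusted p = 0.000497), *Hey1* by -2.46 (SE 0.14, adjusted p = 1.38e-11) and *Chrd*, which encodes the inhibitor chordin, by -1.41 (SE 0.12, adjusted p = 8.18e-09). *Bmp5* was near background in GTML tumours (mean 4.81), so that its difference is a minimum size.

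**Figure D5:**
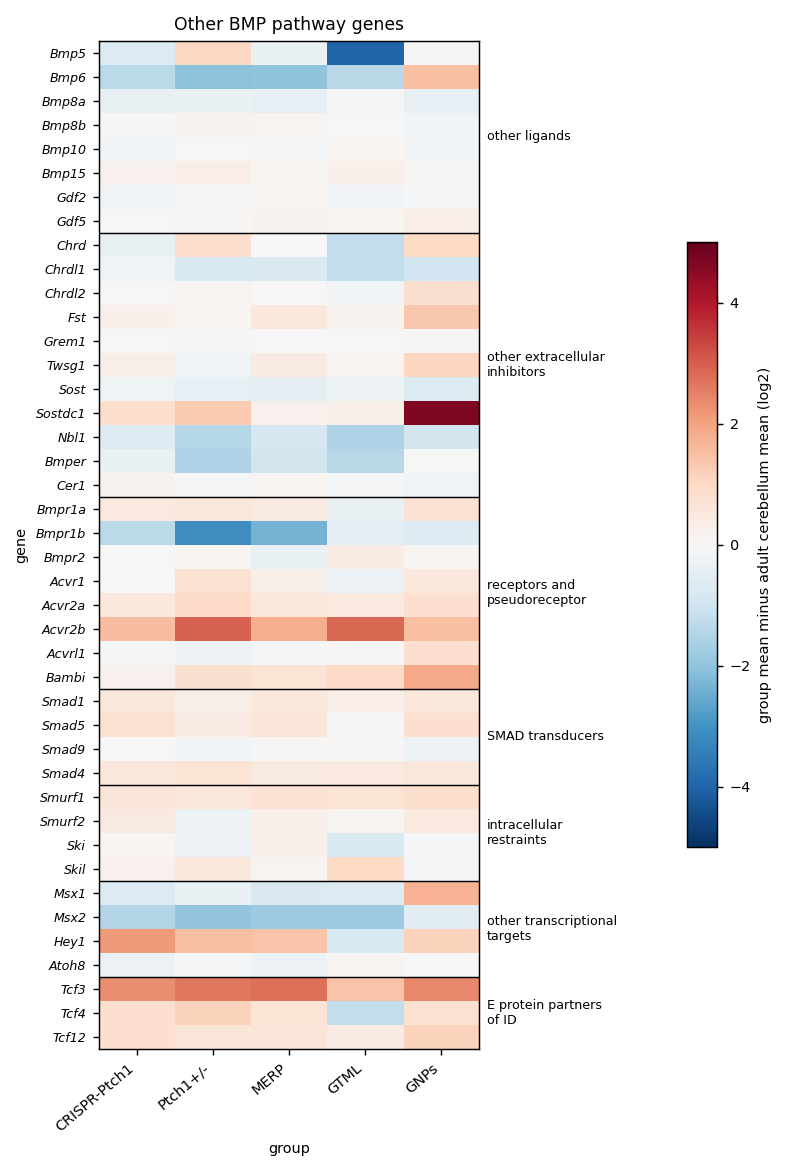
Mean of each of the 42 other pathway genes (rows, ordered by role) in 5 groups (columns) minus its mean in adult cerebellum, in log2 units, with red for higher and blue for lower. *Sostdc1* and *Bmp6* are redder in GNPs than in any tumour group, *Bmp5* is bluest in GTML, and the 3 E proteins are red in every group but for *Tcf4* in GTML.

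Over the 23 arrays, *Bmp4* was closest to *Smad6* among the members (Pearson r = 0.93), and *Smad6* to *Smad7* after that (0.85). Of all genes, the 3 most like *Bmp4* were *Ucma* (r = 0.97), *Slc22a8* (0.97) and *Gjb2* (0.96), and the 3 most like *Smad6* were *Slc22a8* (0.96), *Colec12* (0.96) and *Kank4* (0.95). Those most like *Bmp7* were *Rd3* (0.97), *Abca4* (0.97) and *Rxrg* (0.96), and those most like *Id2* were *Cttnbp2* (0.96), *Pcgf5* (0.96) and *Zic1* (0.96). *Id4* was closest to *Pla2g7* (0.94), *Gabrg1* (0.94) and *Rfx4* (0.92), *Id1* to *Cxcl12* (0.92), *Lingo2* (0.90) and *Peli2* (0.90), and *Id3* to *Ppp1r3b* (0.93), *Col8a2* (0.89) and *Emp3* (0.88). *Smad7* was closest to *Grm3* (0.95), *Vtn* (0.94) and *Plin3* (0.93), *Bmp2* to *She* (0.89), *Gstm2* (0.89) and *Grrp1* (0.89), and *Nog*, near background, to *Cnih2* (0.81), *Borcs6* (0.81) and *Ndufb2* (0.80). These likenesses were taken over arrays that share groups and processing.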

How the data were processed

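Total RNA of 23 samples was measured on Affymetrix arrays. The deposited log2 values had been made by the authors in Affymetrix Expression Console 1.3.1 with RMA, a method of background correction, quantile normalization and summary of each probe set. Which arrays were normalized together is not given in the sources used here.

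The array has 45101 probe sets, of which the 34958 that name exactly 1 gene were kept and 932 with several genes and 9211 without a gene were not. They stand for 18194 genes, each read from its brightest probe set on average. Groups were compared in 1 limma fit (limma 3.58.1, R 4.3.3, eBayes defaults) of 6 groups with EP and TF tumours pooled, with Benjamini-Hochberg adjustment across the genes in each comparison. The fit was tested on simulated arrays with 200 changed genes. No detection calls were given, and the number of arrays limits the precision. Tables and figures were made with Python 3.11.15, pandas 2.3.3 and matplotlib 3.10.9.

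The members and the lists of markers and pathway genes were chosen with earlier results of these data known. Named were all members, pathway genes called with at least a 2-fold difference in *Ptch1*-model tumours against adult cerebellum or GNPs or in GTML against *Ptch1*-model tumours, and the 3 genes most like each member. Some pathway genes outside this rule (*Smad1*, *Smad4*, *Smad5*, *Smad9*, *Tcf12*, *Cer1*) were named after their values were seen.

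Alternatives were other normalizations and probe set choices, a trended robust eBayes, no dim genes (10986 genes exceeded 7.311 in 3 or more arrays), only the groups compared, a 2-fold minimum, EP or TF tumours alone, the replicate number as a block and leaving out each array. Promoters came from RefSeq (GRCm38.p6). The protein sequences were not used here.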

Additional observations from a re-analysis of the deposited data

Results flagged for a closer look

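In 4 of 40 groups of 4 or 5 arrays (10 members in 4 groups), 1 array stood apart from the rest of its group by Dixon's test at 95%, where chance flags about 1 in 20. *Id4* was 3.58 in MERP tumour 5, with the other 4 between 7.30 and 8.17, and 4.83 in GTML tumour 2, with the other 3 between 7.56 and 7.86. *Bmp4* was 4.47 in GTML tumour 2 against 4.82 to 4.86 in the others, all near background. *Bmp7* was 6.04 in *Ptch1*+/- tumour 1 against 6.60 to 6.70.

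GTML tumour 2 was also the lowest of its group for *Id1* (7.003), *Id2* (6.78), *Id3* (7.16) and *Bmp7* (8.34). Its astrocyte and Bergmann glia markers had a mean of 5.80 against 8.28 to 8.79 in the other GTML tumours. MERP tumour 5 was the lowest of its group for *Id1* (8.41), *Id3* (7.60), *Smad6* (3.54) and *Smad7* (7.14), with an astrocyte marker mean of 8.55 against 9.12 to 9.88. The cause was not tested.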

How the results depend on the processing

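The counts of members called kept within 1.5 times their size under most alternatives. Centring on the median of named genes subtracts from every difference of a comparison the shift of the array medians, which was 0.23 (GNPs against adult cerebellum), -0.06 and -0.29 (*Ptch1*-model tumours against adult cerebellum and GNPs), -0.20 and -0.14 (GTML against adult cerebellum and *Ptch1*-model tumours), 0.20 and 0.48 (CRISPR-Ptch1 against MERP and *Ptch1*+/-) and 0.28 (MERP against *Ptch1*+/-). The share of higher genes among all calls went from 58.1% to 41.8%, 50.6% to 54.3%, 28.6% to 79%, 49.4% to 62.9%, 48.3% to 64.3%, 61.4% to 23%, 77.4% to 20.7% and 81% to 40.4% in that order. In CRISPR-Ptch1 against *Ptch1*+/- tumours it turned *Nog* from 0.05 to -0.43 (adjusted p = 0.0149) and *Smad6* from 0.44 to -0.040. The members called higher and lower became 4 and 2 in GNPs against adult cerebellum, 1 and 6 in GTML against adult cerebellum, 3 and 2 in GTML against *Ptch1*-model tumours and 2 and 2 in CRISPR-Ptch1 against *Ptch1*+/- tumours. The mean of the probe sets turned *Id2* in MERP against *Ptch1*+/- tumours from 0.06 to -0.75 (adjusted p = 0.0468). A sign also changed in 55 of 2796 values that passed in neither setting. The count for MERP against *Ptch1*+/- tumours went from 0 to 1 (*Bmp4*, higher) with arrays centred on all probe sets, quantile-normalized again or without dim genes. It went to 1 (*Id1*, lower by -0.64, adjusted p = 0.0157) with arrays centred on named genes, and to 2 with the mean of the probe sets. Without dim genes, 3 of the 6 calls of *Ptch1*-model tumours against adult cerebellum remained, because 7 of the 10 members were left. With only the groups compared, CRISPR-Ptch1 against MERP gave 1 call, and *Id4* was no longer called (3.28, adjusted p = 0.0849). With a 2-fold minimum the counts were 3 (GNPs against adult cerebellum), 3 (GTML against *Ptch1*-model tumours) and 2 (CRISPR-Ptch1 against *Ptch1*+/-). With the TF tumour alone they were 0 against MERP and 0 against *Ptch1*+/-, where the lone tumour is assumed to vary like the other groups. Leaving out each array gave 5 to 7 calls for GNPs against adult cerebellum, 5 to 6 and 8 to 8 for *Ptch1*-model tumours against adult cerebellum and GNPs, 8 to 9 and 5 to 8 for GTML against adult cerebellum and *Ptch1*-model tumours, 1 to 3 for CRISPR-Ptch1 against MERP (1 without EP tumour 1 or EP tumour 2), 2 to 4 against *Ptch1*+/- (2 without EP tumour 1 or *Ptch1*+/- tumour 4) and 0 to 2 for MERP against *Ptch1*+/- (2 without *Ptch1*+/- tumour 2, 1 without *Ptch1*+/- tumour 1, MERP tumour 1 or GTML tumour 2).

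The replicate numbers did not pair the samples: 46 pairs of arrays with the same number had a mean correlation of -0.01 of their deviations from the group means (lowest -0.28), against 0.01 in 153 other pairs. With the replicate number as a block, which leaves the TF tumour and MERP tumour 5 without weight, the counts were 7, 6, 8, 9, 7, 2, 3 and 0 in the order above, and *Id4* was called in GTML against *Ptch1*-model tumours (-1.77, adjusted p = 0.00197).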
